A study of Mus musculus with 22 samples.

Results

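The potassium channel genes described here are the inward rectifiers (Kir, gene prefix Kcnj), the leak channels with a pair of pore domains per subunit (K2P, Kcnk), the large and small conductance calcium-activated channels (Kcnma, Kcnmb and Kcnn), the sodium-activated channels (Kcnt) and the sperm channel gene of the Kcnu group. They were chosen by symbol alone: every coding gene with one of these prefixes followed by a number, 39 of the 21363 genes in the expression table, of which 16640 are coding. RNA came from nuclei of the bilateral lumbar dorsal horn of pDyn-Sun1-GFP mice, a strain in which nuclei of the prodynorphin (pDyn) lineage carry a green fluorescent nuclear envelope protein, of both sexes. Fluorescence sorting gave from each animal 1 sample of GFP+ nuclei, labelled as pDyn-lineage, and 1 of GFP- nuclei, labelled as unidentified spinal nuclei outside that lineage, each of 5000 nuclei. The groups were GFP+ nuclei at postnatal day 7 (P7, n = 4), P21 (n = 3) and P80 (n = 4), and GFP- nuclei at P7 (n = 4), P21 (n = 3) and P80 (n = 4), from 11 animals of that 1 strain, with no agent or allele beyond the reporter in the labels. The label is of lineage: a nucleus may carry the reporter after the gene has gone silent, and the GFP- samples may hold neurons as well as glia and vessel cells. The design asked how pDyn-lineage nuclei differ from the other nuclei at each age, and how they change between ages.

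Potassium channels let potassium leave a neuron and so hold its membrane potential negative and end its spikes. Kir and K2P channels carry much of the resting conductance. G protein-gated Kir channels (GIRK) open when opioid, somatostatin, adrenergic and other inhibitory receptors are engaged, which is one way these receptors quiet dorsal horn neurons. Calcium- and sodium-activated channels open after a spike or a burst, when those ions have entered, and shape repolarisation and the pause that follows. In glia, other Kir channels take up and redistribute the potassium that neurons release.

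Libraries held between 4244987 and 10849169 reads, with a median of 5359703. Pdyn, the gene that defines the lineage, averaged 511 ± 75.2 normalised counts in GFP+ libraries and 7.42 ± 5.11 in GFP- libraries (SD, n = 11 each), which matches the labels. All values below are normalised counts, the read counts divided by a library size factor, unless a log2 difference is named. They carry no correction for gene length, so that levels are compared between libraries and not between genes. The marker score of a cell type, the mean of log2(value + 1) over its marker genes, was 9.78 to 10.01 in GFP+ libraries and 8.41 to 9.55 in GFP- libraries for 14 pan-neuronal genes. For 8 inhibitory neuron genes it was 7.95 to 8.18 in GFP+ and 5.42 to 7.29 in GFP- libraries. Summed values of 10 oligodendrocyte genes ran from 2202 to 10968 in GFP+ and from 27570 to 117309 in GFP- libraries, and those of 10 astrocyte genes from 1325 to 4815 in GFP+ and from 6433 to 19019 in GFP- libraries. No marker of these 4 lists was at 0 in every library of either population. The libraries ES8 (P80), ES12 and ES16 (both P21), all GFP-, stood apart with pan-neuronal scores of 8.49, 8.41 and 8.62, against 9.07 to 9.55 in the other GFP- libraries. ES8 and ES12 each had an oligodendrocyte score of 12.15, and ES16 an endothelial and mural score of 8.68.

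Of the 39 channel genes, 33 reached 10 in 3 or more libraries and were tested. Averaged over the 3 ages, 15 were higher in GFP+ nuclei, 7 were lower and 11 did not pass the test, at an adjusted p under 0.05 in limma with Benjamini-Hochberg adjustment over 18614 genes. That is 66.7% of the tested members, against 48.2% of all genes tested (22.6% higher and 25.5% lower). A difference of at least 2-fold was called higher for 12 members, against 5.65% of all genes, and lower for 6, against 12.3% of all genes. The 12 were Kcnt2, Kcnk2, Kcnmb1, Kcnj3, Kcnk4, Kcnj6, Kcnmb2, Kcnj9, Kcnj5, Kcnma1, Kcnk9 and Kcnk10, and the 6 were Kcnj8, Kcnk13, Kcnk6, Kcnk5, Kcnj10 and Kcnj16. Kcnt1, Kcnj11 and Kcnj2 were higher and Kcnn3 was lower by less than 2-fold. Of the lower members, Kcnj8 and Kcnk5 passed the filter on low values only through GFP- libraries, which fixed their direction. Without them, 5 of 31 were lower, 4 of these by at least 2-fold. In sorted bulk samples, fewer cells of a type and less RNA per cell cannot be told apart.

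Neuronal markers moved with the populations: 13 of the 14 pan-neuronal genes were higher in GFP+ nuclei. The differences of most called members are therefore also given after the libraries were rescaled to equal pan-neuronal scores, which moved the median of all genes by -0.78 on the log2 scale. On that scale 9 members were higher in GFP+ nuclei, against 3.4% of all genes, and 16 were lower, against 74.9% of all genes. The 9 were Kcnt2, Kcnk2, Kcnmb1, Kcnj3, Kcnk4, Kcnj6, Kcnmb2, Kcnj9 and Kcnma1. Kcnt1, Kcnj5, Kcnj11, Kcnj2, Kcnk9 and Kcnk10 were no longer called. The 7 lower members could only stay lower, since this scaling lowers every difference between the populations by the same amount. The lower members again include Kcnj8 and Kcnk5, whose direction the filter on low values fixed.

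**Figure D1:**
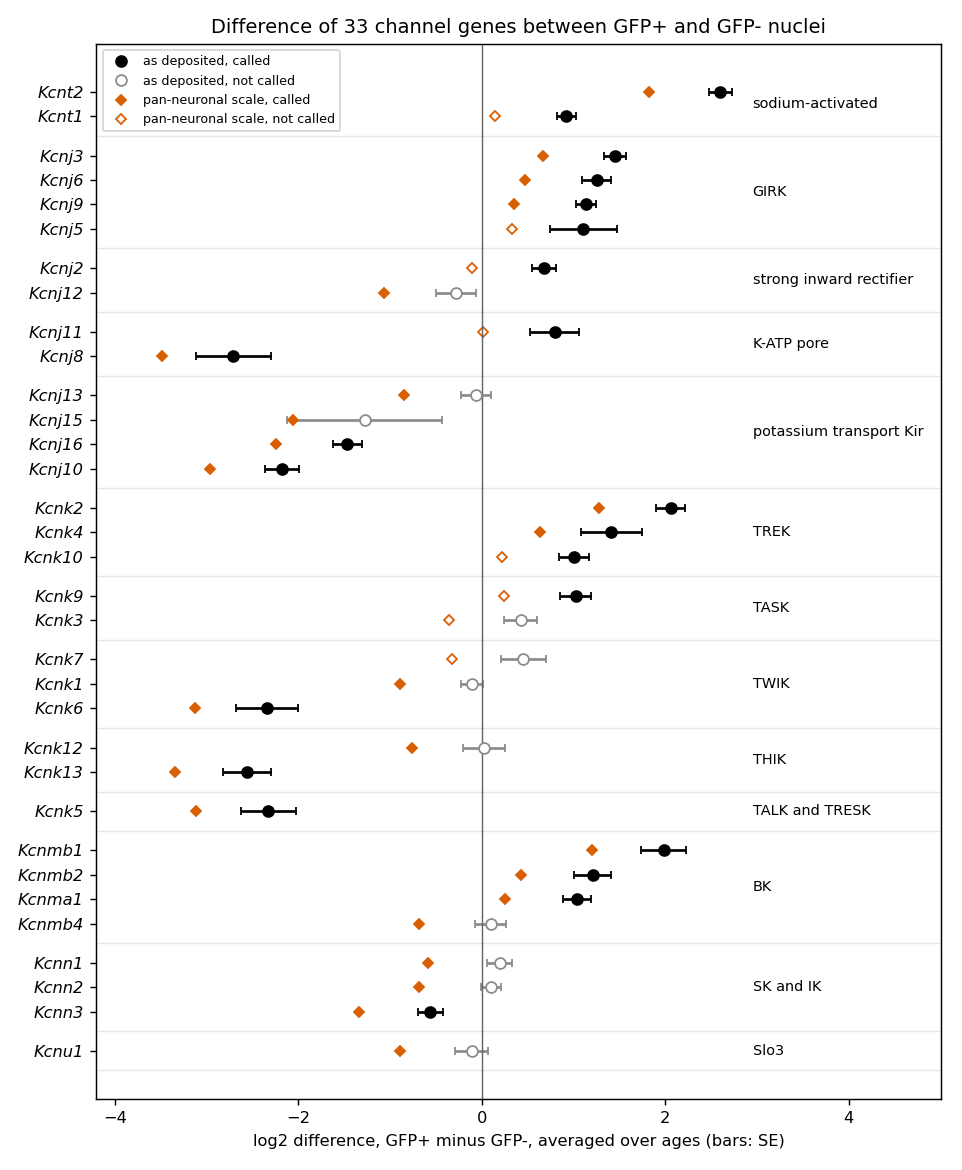
Difference between GFP+ and GFP- nuclei averaged over the 3 ages for the 33 tested channel genes, as log2 GFP+ minus GFP- with its standard error, grouped by family; filled points passed an adjusted p of 0.05 and orange diamonds give the same difference after scaling to pan-neuronal genes. Kcnt2 lies at 2.60 at the high end and Kcnj8 at -2.71 at the low end, and every diamond lies left of its point.

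At P7 alone 9 members were called higher and 5 lower, against 7.06% and 10.1% of all genes (17.2% in either direction). At P21 they were 12 higher and 6 lower, against 14.7% and 18.3% (32.9%), and at P80 12 higher and 7 lower, against 12.6% and 15.4% (28%). With pan-neuronal scaling these became 5 higher and 9 lower at P7, against 1.47% and 25% of all genes. They became 5 higher and 15 lower at P21, against 1.65% and 67.1%, and 6 higher and 10 lower at P80, against 2.29% and 45.2%. The GFP+ and GFP- libraries did not overlap for 17 members at P7, against 28.5% of all genes, for 19 at P21, against 39.8%, and for 19 at P80, against 32%. The counts of lower members, on both scales, and of members without overlap include Kcnj8 at each age and Kcnk5 at P21 and P80. The filter on low values fixed the direction of both. At each of the 3 ages the GFP+ libraries lay entirely above the GFP- libraries for Kcnt1, Kcnt2, Kcnj3, Kcnj9, Kcnk2, Kcnk9, Kcnma1, Kcnmb1 and Kcnmb2 (9 members, against 6.62% of all genes). They lay entirely below them for Kcnj8, Kcnj10, Kcnj16 and Kcnk13 (4 members, against 8.38% of all genes), where the filter fixed the direction of Kcnj8.

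Both sodium-activated channel genes were higher in GFP+ nuclei at every age. Kcnt2 encodes Slick and Kcnt1 encodes Slack, pore subunits that open when sodium enters during firing. At P7, Kcnt2 had 2886, 2888, 3474 and 3918 in the GFP+ libraries, against 521, 606, 669 and 765 in the GFP- libraries. At P21 it had 2186, 2196 and 2365 in GFP+, against 224, 289 and 517 in GFP- libraries. At P80 it had 2130.5, 2270.4, 2301 and 2421 in GFP+, against 223, 415, 423 and 447 in GFP- libraries. The lowest of the 11 GFP+ libraries was above the highest of the 11 GFP- libraries, which held for 4 members in all (Kcnt2, Kcnt1, Kcnk2 and Kcnma1, against 3.6% of all genes). The log2 difference of Kcnt2 was 2.60 ± 0.13 (SE; limma adjusted p = 2.54e-12), and 1.82 with pan-neuronal scaling.

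Kcnt1 showed a smaller difference. At P7 its values were 2861, 2932, 2953 and 3438 in GFP+, against 1487, 1778, 1900.5 and 2265 in GFP- libraries. The P21 libraries had 3632, 4185 and 4285 in GFP+, against 1413, 1683 and 2439 in GFP- nuclei. At P80 the values were 3726, 3758, 3863 and 4345 in GFP+, against 1485, 2111, 2472 and 2660.2 in GFP- libraries. The groups did not overlap at any age, and over the mean of ages the log2 difference was 0.92 ± 0.10 (limma adjusted p = 1.46e-07). With pan-neuronal scaling it was 0.14 and was not called, so that of this pair only Kcnt2 was called on both scales.

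The promoter windows of 3 members that the results turn on are printed here, since their genes differed in opposite directions. Kcnt2 and Kcnj3 (a GIRK subunit) were higher, and Kcnj10 (the glial Kir subunit) was lower in GFP+ nuclei. Each window is the 250 bases before the outermost annotated start in RefSeq GRCm38.p6, 5′ to 3′ on the gene's strand. They lie at chr1:140245468-140245717, chr2:55435720-55435969 and chr1:172340960-172341209, all on the plus strand. Capitals mark a GC box (GGGCGG or its complement) or an E-box of the form CAGCTG. Other forms of the E-box were not searched. Both strands were searched for these motifs and for a cyclic AMP response element (TGACGTCA).
Kcnt2: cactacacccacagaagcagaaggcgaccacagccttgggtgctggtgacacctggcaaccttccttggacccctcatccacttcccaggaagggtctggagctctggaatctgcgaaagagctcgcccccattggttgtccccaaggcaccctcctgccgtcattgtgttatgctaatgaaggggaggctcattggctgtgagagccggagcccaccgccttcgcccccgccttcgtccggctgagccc
Kcnj3: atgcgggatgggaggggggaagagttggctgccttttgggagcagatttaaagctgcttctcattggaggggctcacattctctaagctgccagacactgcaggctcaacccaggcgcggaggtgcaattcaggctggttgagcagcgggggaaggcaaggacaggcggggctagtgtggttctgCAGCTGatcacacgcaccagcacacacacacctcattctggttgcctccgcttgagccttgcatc
Kcnj10: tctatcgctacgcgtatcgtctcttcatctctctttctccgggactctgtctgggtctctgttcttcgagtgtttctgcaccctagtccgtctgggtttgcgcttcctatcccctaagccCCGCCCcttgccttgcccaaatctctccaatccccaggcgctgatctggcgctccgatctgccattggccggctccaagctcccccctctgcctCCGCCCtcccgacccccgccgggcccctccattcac
The Kcnt2 window held none of the motifs searched, that of Kcnj3 held 1 E-box of the form CAGCTG and that of Kcnj10 held 2 GC boxes. GC made up 61.6%, 58.4% and 62.0% of the bases of Kcnt2, Kcnj3 and Kcnj10, against a median of 52.0% over all gene windows. A window was on hand for 31 of the 39 members. A GC box was found in 13 of these, against 33% of 27026 windows of all genes, an E-box in 7, against 12.7%, and a cyclic AMP response element in 0, against 1.6%. These matches only describe the letters of the windows.

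The 4 GIRK genes were all higher in GFP+ nuclei. Kcnj3 encodes the subunit that joins the others to make channels of full activity, Kcnj6 and Kcnj9 encode its usual neuronal partners, and Kcnj5 is best known from the heart. At P7, Kcnj3 had 501, 514, 586 and 604 in GFP+, against 198, 214, 225 and 249 in GFP- libraries. The P21 values were 749, 816 and 889 in GFP+, against 224, 245 and 417 in GFP- libraries. At P80 they were 928, 993, 1080.4 and 1092 in GFP+, against 232, 347, 373 and 525 in GFP- libraries. The groups were apart at each age, with a log2 difference of 1.45 ± 0.12 (limma adjusted p = 1.18e-09), and 0.67 with pan-neuronal scaling.

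Kcnj6 values in P7 libraries were 392, 477, 555 and 642 for GFP+, against 205, 284, 309.8 and 399 for GFP- nuclei, which overlapped. The overlap was gone at P21, with 636, 732 and 734 in GFP+, against 151, 219 and 355 in GFP- libraries. It was absent at P80 as well, with 672, 701, 742 and 773 in GFP+, against 160.1, 303, 367 and 368 in GFP- libraries. Over the 3 ages Kcnj6 had a mean log2 difference of 1.25 ± 0.15 (limma adjusted p = 8.74e-07), and of 0.47 with pan-neuronal scaling.

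For Kcnj9, the P7 libraries had 139.9, 168, 183 and 185 in GFP+, against 61.3, 67.0, 80.4 and 88.8 in GFP- nuclei. At P21 the gene had 244, 276 and 301 in GFP+, against 76.6, 113 and 156 in GFP- libraries. The P80 values were 206, 224, 244 and 289 in GFP+, against 108, 119.7, 128 and 145 in GFP- libraries. No age showed overlap, and the log2 difference was 1.14 ± 0.11 (limma adjusted p = 2.57e-08), or 0.35 with pan-neuronal scaling. Kcnj5 was close to the detection limit. Its values ran from 1.14 to 24.9 in GFP+ libraries and from 0 to 15.4 in GFP- libraries, with a mean of 9.08 over all libraries. The groups overlapped at every age, no single age passed the test, and over the mean of ages the log2 difference was 1.11 ± 0.37 (limma adjusted p = 0.0168), or 0.32 and not called with pan-neuronal scaling.

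**Figure D2:**
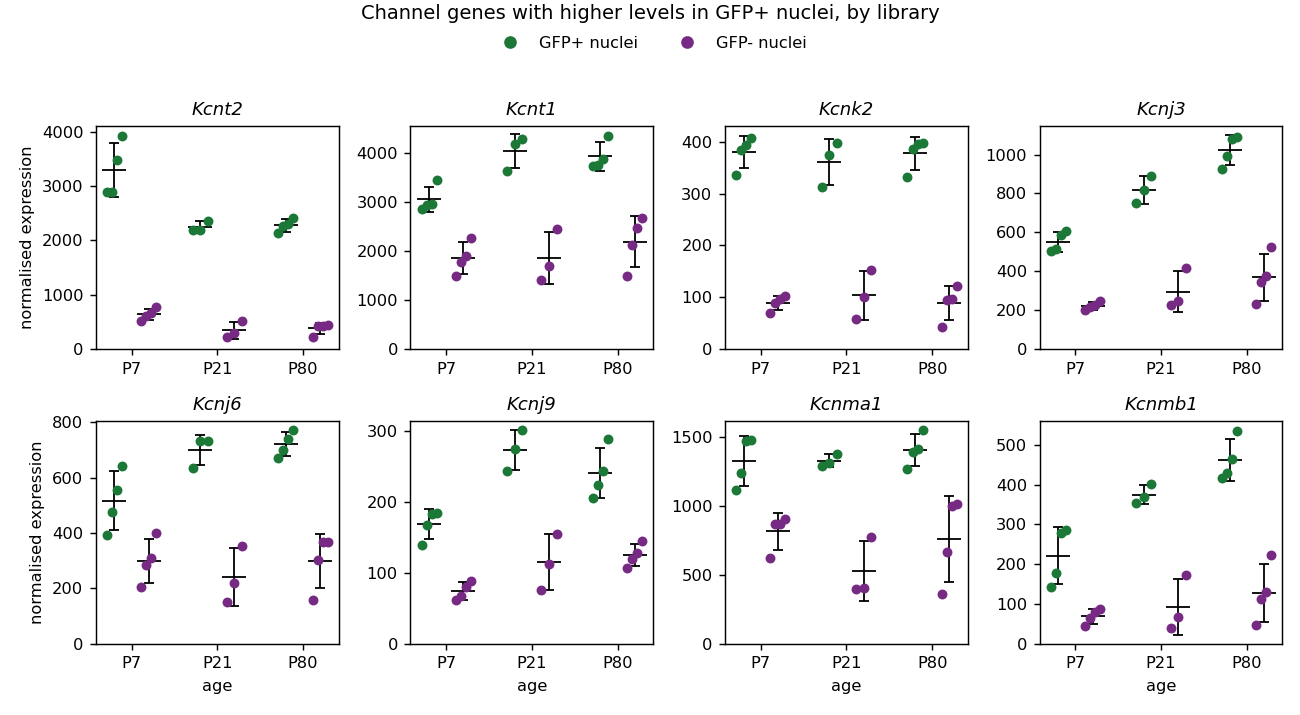
Normalised counts of 8 channel genes in each library, with GFP+ left of GFP- at P7, P21 and P80; points are libraries and bars give the mean and SD of each group. In every panel the GFP+ means lie above the GFP- means at each age, and for Kcnt2 the 11 GFP+ libraries lie between 2130.5 and 3918, all above the highest GFP- library at 765.

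Receptors that couple to GIRK channels through inhibitory G proteins were mostly higher in the same nuclei. Of 24 such genes tested, 15 were higher, 3 lower and 6 not called, where 22.6% of all genes were higher and 25.5% lower. Their median log2 difference was 0.66, against -0.02 for all genes tested. The 4 with the largest called differences were Sstr2 at 4.06 and Sstr1 at 3.001, which encode somatostatin receptors, and Adra2b at 3.52 and Adra2c at 2.28, which encode alpha-adrenergic receptors. With pan-neuronal scaling the list had 8 higher and 9 lower, against 3.4% and 74.9% of all genes, and a median of -0.12, against -0.81. Of 23 regulators tested (G protein subunits, RGS proteins and KCTD proteins), 13 were higher and 5 lower, against the same 22.6% and 25.5%. Their median was 0.45. Kctd8, whose protein sits in GABA-B receptor complexes, differed by 1.63. Rgs11 at 1.22, Rgs7 at 1.03 and Rgs4 at 0.94 encode proteins that speed the closing of the G protein signal. With pan-neuronal scaling 2 of the 23 regulators were higher and 13 lower, against the same 3.4% and 74.9% of all genes, with a median of -0.33.

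Among the strong inward rectifiers, which hold the resting potential near that of potassium, Kcnj2 was higher in GFP+ nuclei and Kcnj12 was not called. Kcnj2 had 161, 175, 186 and 194 at P7 in GFP+, against 76.9, 77.5, 87.1 and 98.9 in GFP- libraries. At P21 the values overlapped, with 289, 299 and 311 in GFP+, against 194, 217 and 315 in GFP- libraries. They overlapped at P80 too, with 276, 297, 312 and 339 in GFP+, against 137, 142, 227 and 353 in GFP- libraries. Over the mean of ages the log2 difference was 0.67 ± 0.13 (limma adjusted p = 0.000187), and -0.11, the other way and not called, with pan-neuronal scaling. By age it was 1.07 at P7 (adjusted p = 0.0013), 0.34 at P21 (0.313) and 0.62 at P80 (0.0352), and the P80 call was lost without ES1, ES2, ES5, ES6 or ES7, with an adjusted p of up to 0.133. Kcnj12 differed by -0.28. Kcnj4 and Kcnj14, the other members of this family, were not tested, and their highest values in any library were 10.2 and 13.03.

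The ATP-sensitive channels, which open when a cell is short of energy, are built from Kcnj8 or Kcnj11 pores and sulfonylurea receptor subunits. Kcnj8, the pore typical of vessel wall cells, was close to absent from GFP+ nuclei. It had 0, 0, 0.823 and 1.14 at P7 in GFP+, against 4.03, 8.32, 9.45 and 15.8 in GFP- libraries. The P21 libraries had 0, 0 and 2.005 in GFP+, against 5.06, 9.91 and 31.7 in GFP- nuclei, and the P80 libraries 0, 0, 0 and 0.870 in GFP+, against 1.31, 2.01, 6.71 and 14.5 in GFP- nuclei. No age showed overlap, and the log2 difference was -2.71 ± 0.41, on a scale that understates the change of so low a gene. Kcnj8 passed the filter on low values only through GFP- libraries, so that a difference could only have this direction and no test is given. Endothelial and mural marker scores were 3.37 to 4.78 in GFP+ and 4.72 to 8.68 in GFP- libraries. The library with the highest Kcnj8, at 31.7, was ES16, which also had the highest endothelial and mural score. The part of vessel cells in the Kcnj8 difference was not tested.

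Kcnj11, the pore typical of neurons and pancreatic beta cells, was higher in GFP+ nuclei, with values of 12.3 to 62.1 in GFP+ and 8.14 to 37.1 in GFP- libraries. Its log2 difference was 0.79 ± 0.27 (limma adjusted p = 0.0182), passed the test at no single age, and was not called with pan-neuronal scaling or without the libraries ES8, ES12 and ES16. Kcnj11 is given with values because its partner subunits moved in opposite directions, which was seen in the results. Abcc8, the sulfonylurea receptor that pairs with Kcnj11 in neurons, was higher by 1.44 ± 0.24 (limma adjusted p = 4.69e-05), and by 0.66 with pan-neuronal scaling. Abcc9, the receptor found in heart and vessel muscle, was lower by a log2 difference of -1.03 ± 0.14 (limma adjusted p = 2.12e-06).

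Kcnj10 and Kcnj16 encode the pore subunits by which glia take up potassium, and both were lower in GFP+ nuclei at every age. Kcnj10 had 173, 257, 346 and 366 at P7 in GFP+, against 751, 761, 792 and 1034 in GFP- libraries. The P21 values were 279, 300.1 and 314 in GFP+, against 834, 1141 and 2563 in GFP- libraries. At P80 they were 149.9, 166, 177 and 240.2 in GFP+, against 903, 927, 1236 and 2236 in GFP- libraries. The highest of the 11 GFP+ libraries was below the lowest of the 11 GFP- libraries, which held for this gene and Kcnk13 (2 members, against 4.81% of all genes). The log2 difference was -2.18 ± 0.19 (limma adjusted p = 5.86e-09), and -2.96 with pan-neuronal scaling.

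Kcnj16, which forms channels together with Kcnj10, had 53.4, 69.9, 100.4 and 120.3 at P7 in GFP+, against 140.0, 179, 187 and 196 in GFP- libraries. At P21 it had 42.1, 42.7 and 49.9 in GFP+, against 102, 140.4 and 234 in GFP- nuclei. At P80 the values were 23.6, 33.1, 41.6 and 49.3 in GFP+, against 97.9, 113, 115 and 115 in GFP- libraries. The groups were apart at each age, with a log2 difference of -1.47 ± 0.16 (limma adjusted p = 1.02e-07), and -2.25 with pan-neuronal scaling.

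Glial markers moved with this pair of genes. All 10 astrocyte and all 10 oligodendrocyte markers were lower in GFP+ nuclei, with scores of 5.89 to 8.08 in GFP+ and 8.41 to 10.05 in GFP- libraries for astrocytes, and of 6.68 to 8.72 in GFP+ and 9.82 to 12.15 in GFP- libraries for oligodendrocytes. The highest values of Kcnj10, 2563 and 2236, were in ES12 and ES8, the libraries with the highest oligodendrocyte scores. How much of the Kcnj10 and Kcnj16 difference goes with the number of glial nuclei was not tested. Without ES8, ES12 and ES16, both stayed lower and called.

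The other Kir genes of potassium transport gave no call. Kcnj13, known from epithelia, differed by -0.06 and lies inside Gigyf2 on the other strand, and Kcnj1, the kidney channel, was not tested, with a highest value of 13.8. Kcnj15, known from kidney and vessel, had 0 to 30.6 in GFP+ libraries. It had 1.003 to 48.8 in the GFP- libraries other than ES16, where it reached 697, and its log2 difference of -1.28 ± 0.84 did not pass the test (limma adjusted p = 0.227). Kcnj15 is named with values because of that 1 library, seen in the data.

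**Figure D3:**
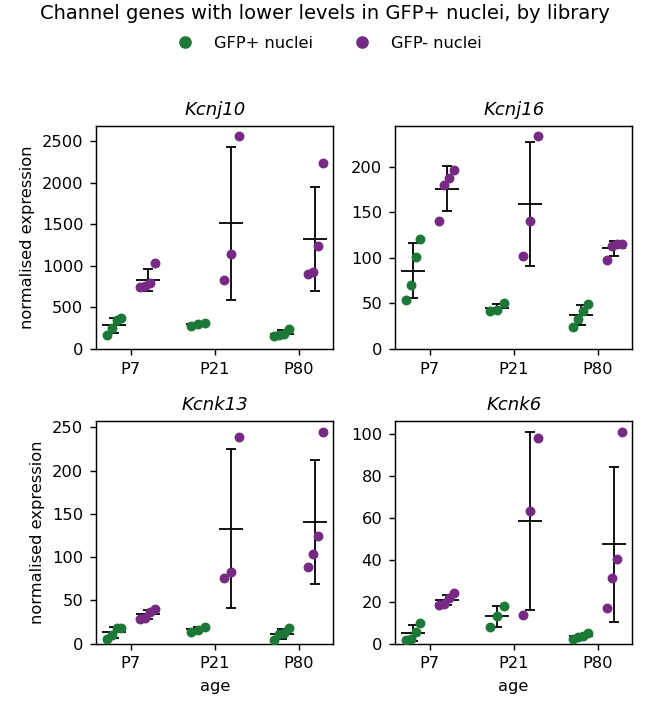
Normalised counts of Kcnj10, Kcnj16, Kcnk13 and Kcnk6 in each library, with GFP+ left of GFP- at P7, P21 and P80; points are libraries and bars give the mean and SD of each group. The GFP+ means lie below the GFP- means at each age, and GFP- libraries spread more at P21 and P80, with ES12 and ES8 highest for Kcnj10 at 2563 and 2236.

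**Figure D4:**
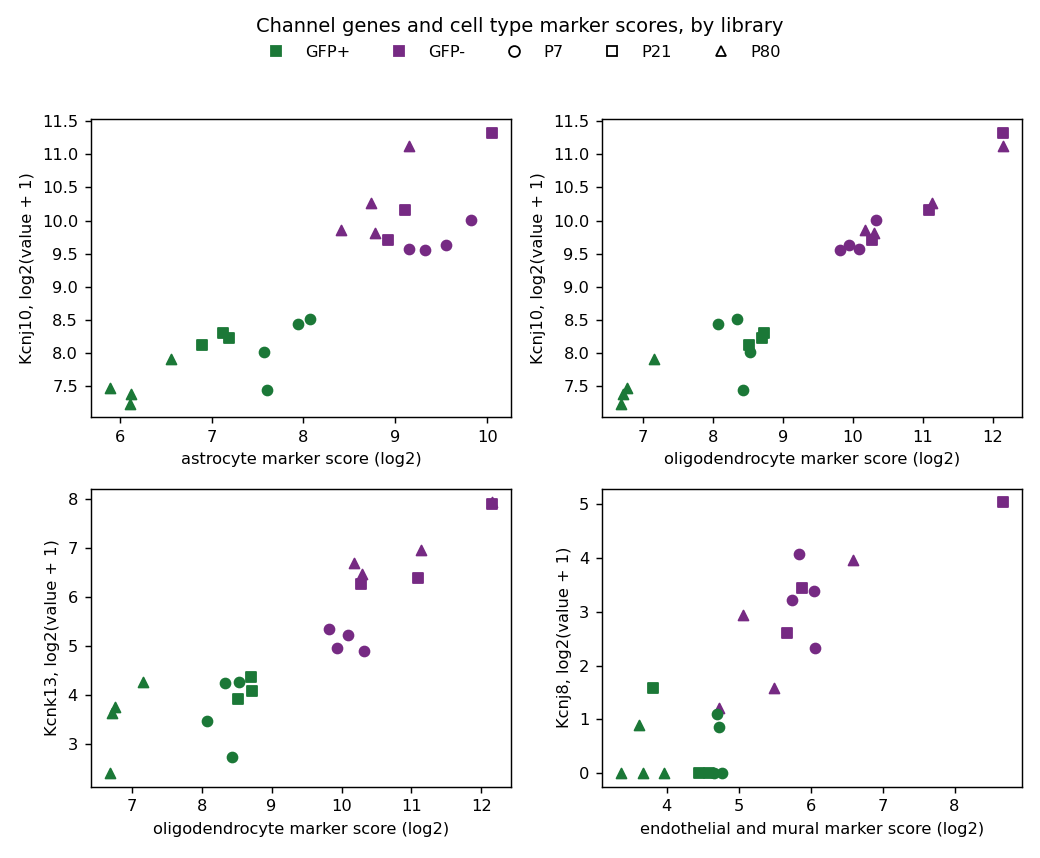
Channel gene against marker score in each of the 22 libraries: Kcnj10 against the astrocyte and the oligodendrocyte score, Kcnk13 against the oligodendrocyte score, and Kcnj8 against the endothelial and mural score. GFP+ libraries lie at the low end of both axes for Kcnj10 and Kcnk13, and the libraries ES8 and ES12 lie at the high end of the oligodendrocyte score, each at 12.15.

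The mechanically and lipid-gated K2P channels of the TREK group, which leak potassium and are opened by stretch, warmth and polyunsaturated fatty acids, were all 3 higher in GFP+ nuclei. Kcnk2 had 337, 383, 394 and 408 at P7 in GFP+, against 69.4, 88.7, 95.4 and 102 in GFP- libraries. Its P21 values were 312, 375 and 397 in GFP+, against 57.5, 101 and 152 in GFP- libraries. At P80 they were 332, 386, 396 and 398 in GFP+, against 41.6, 94.0, 97.3 and 121 in GFP- libraries. The 22 libraries fell into separate ranges, with a log2 difference of 2.06 ± 0.16 (limma adjusted p = 1e-09), and 1.27 with pan-neuronal scaling. The GFP+ mean of Kcnk2 was nearly flat over age, at 381 ± 31.0, 361 ± 43.9 and 378 ± 31.2 at P7, P21 and P80 (SD, n = 4, 3 and 4).

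Kcnk4 and Kcnk10, its relatives, differed less firmly. For Kcnk4 the GFP+ libraries had 17.2 to 35.9 and the GFP- libraries 1.64 to 29.1, a log2 difference of 1.41 ± 0.33 (limma adjusted p = 0.00133), and 0.63 with pan-neuronal scaling. Without ES8, ES12 and ES16 it was 0.71 and was still called. By age it was called only at P21, at 2.31 ± 0.63 (limma adjusted p = 0.00773), where 21.9, 29.5 and 31.1 in GFP+ stood above 1.64, 2.97 and 16.4 in GFP- libraries. The low values of 1.64 and 2.97 were those of ES16 and ES12. Without ES8, ES12 and ES16 the P21 difference of Kcnk4 was 0.69 and not called (limma adjusted p = 0.511), and with only the P21 libraries fitted it was also not called (limma adjusted p = 0.0721). The Kcnk4 gene overlaps the end of Catsperz on the same strand (chr19, 6923966 to 6934515 and 6922371 to 6925380), so reads of that stretch cannot be assigned with certainty. Kcnk10 had 89.0, 105, 110.2 and 149.5 at P7 in GFP+, against 61.3, 64.2, 80.4 and 90.7 in GFP- libraries, which overlapped. It was apart at P21, with 117, 128 and 156 in GFP+, against 30.6, 39.6 and 82.2 in GFP- libraries, and at P80, with 115, 121, 131 and 140.5 in GFP+, against 42.5, 58.2, 71.8 and 109 in GFP- libraries. Its log2 difference was 1.003 ± 0.165 (limma adjusted p = 2.93e-05), or 0.22 and not called with pan-neuronal scaling. Without ES8 alone, the P80 difference of Kcnk10 was no longer called.

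Of the acid-inhibited TASK channels, Kcnk9 was higher in GFP+ nuclei and Kcnk3 was not called. Kcnk9 had 179, 183, 201 and 219 at P7 in GFP+, against 113, 116, 122 and 133 in GFP- libraries. Its P21 values were 243, 269 and 304 in GFP+, against 75.3, 89.2 and 153 in GFP- libraries, and its P80 values 209.9, 216, 219 and 239 in GFP+, against 49.7, 101, 160.4 and 198 in GFP- libraries. The groups did not overlap at any age, although P7 alone missed the threshold (limma adjusted p = 0.101), and over the mean of ages its log2 difference was 1.02 ± 0.17 (limma adjusted p = 3.77e-05). With pan-neuronal scaling it was 0.24 and not called. Kcnk3 differed by 0.42 (limma adjusted p = 0.0601), and was called when ES2, ES7 or ES16 was left out. Kcnk15, the silent member of the group, was not tested, with a highest value of 13.6.

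The K2P genes that were lower in GFP+ nuclei were Kcnk13, Kcnk6 and Kcnk5. Kcnk13 encodes a THIK channel, the main leak channel of microglia. Its P7 values were 5.68, 10.2, 18.1 and 18.4 in GFP+, against 29.0, 30.2, 36.5 and 39.7 in GFP- libraries. At P21 they were 14.0, 15.9 and 19.7 in GFP+, against 76.0, 83.5 and 239 in GFP- libraries. At P80 they were 4.28, 11.4, 12.4 and 18.3 in GFP+, against 88.2, 103, 124 and 245 in GFP- libraries. No GFP+ library reached the lowest GFP- library, and the log2 difference was -2.56 ± 0.26 (limma adjusted p = 4.32e-08), and -3.34 with pan-neuronal scaling. The libraries with 239 and 245 were again ES12 and ES8, each with an oligodendrocyte score of 12.15. Of 10 microglia markers 9 were lower in GFP+ nuclei, and 1 of them was at 0 in every GFP+ library at P80. Microglia scores were 2.65 to 4.45 in GFP+ and 5.26 to 7.62 in GFP- libraries. The highest, 7.62, was that of ES16, where Kcnk13 was 76.0 and the oligodendrocyte score 10.28. ES12 and ES8 had microglia scores of 7.46 and 7.32. The part of glial nuclei in the Kcnk13 difference was not tested.

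Kcnk6, a TWIK channel of endosomes and lysosomes, had 1.65 to 18.2 in GFP+ libraries and 13.9 to 101 in GFP- libraries. It was lower by a log2 difference of -2.34 ± 0.34 (limma adjusted p = 6.01e-06; -3.12 with pan-neuronal scaling) and was called at each age, but the groups overlapped at P21, where 8.02, 13.1 and 18.2 in GFP+ stood against 13.9, 63.4 and 98.5 in GFP- libraries. That P21 call was lost when ES12, ES13, ES15 or ES16 was left out. Kcnk5, an alkali-activated channel known from kidney and brainstem, had 0 to 4.94 in GFP+ libraries and 4.03 to 27.9 in GFP- libraries, a log2 difference of -2.33 ± 0.30. Like Kcnj8 it passed the filter on low values only through GFP- libraries, so that no test is given. Kcnk1 at -0.11, Kcnk7 at 0.45 and Kcnk12 at 0.02 were not called. Kcnk7 was called higher without ES12 (0.63, limma adjusted p = 0.0312) and without ES8, ES12 and ES16 (0.95, limma adjusted p = 0.00219). Kcnk18, the TRESK channel of sensory neurons, was not tested, with a highest value of 15.7.

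The large conductance (BK) channel, which opens to calcium and voltage together and shortens the spike, was represented by its pore gene Kcnma1 and 3 beta subunit genes. Kcnma1 had 1114, 1237, 1472 and 1480.2 at P7 in GFP+, against 619.5, 867, 869 and 906 in GFP- libraries. Its P21 values were 1289, 1313 and 1380.0 in GFP+, against 399, 402 and 776 in GFP- libraries. At P80 they were 1271, 1390.0, 1412 and 1553 in GFP+, against 359.9, 669, 997 and 1015 in GFP- libraries. All 11 GFP+ libraries were above all 11 GFP- libraries. The log2 difference was 1.04 ± 0.15 (limma adjusted p = 8.14e-06), and 0.25 with pan-neuronal scaling. P7 alone missed the threshold, at 0.71 ± 0.25 (limma adjusted p = 0.0554).

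Kcnmb1, the beta subunit best known from smooth muscle, where it makes the channel more sensitive to calcium, had the largest difference of the BK genes. It had 142, 179, 277 and 287 at P7 in GFP+, against 43.6, 65.6, 80.8 and 86.9 in GFP- libraries. At P21 the values were 355, 368 and 401 in GFP+, against 39.6, 66.2 and 173 in GFP- nuclei. The P80 libraries had 417, 429, 465 and 534 in GFP+, against 47.0, 112, 129.8 and 223 in GFP- nuclei. The groups were apart at each age, with a log2 difference of 1.98 ± 0.24 (limma adjusted p = 9.18e-07), and 1.20 with pan-neuronal scaling. The whole of Kcnmb1 (GRCm38 chr11, 33963013 to 33973641, plus strand) lies inside Kcnip1 (33629339 to 33993152, minus strand). No source used here states whether reads were counted by strand, and in unstranded nuclear RNA the reads of the pair cannot be told apart. Kcnip1, which encodes an auxiliary subunit of A-type potassium channels, averaged 532 ± 43.9 in GFP+ libraries and 300.4 ± 96.7 in GFP- libraries (SD, n = 11 each), a log2 difference of 0.93 ± 0.14 (limma adjusted p = 1.17e-05). Within GFP+ nuclei, Kcnip1 differed by 0.05 between P80 and P7, where Kcnmb1 differed by 1.11 ± 0.40 (limma adjusted p = 0.0879).

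Kcnmb2, whose product makes BK currents inactivate, had 52.7, 71.9, 76.1 and 90.7 at P7 in GFP+, against 26.5, 27.4, 38.8 and 45.3 in GFP- libraries. Its P21 values were 71.5, 75.2 and 99.7 in GFP+, against 16.8, 50.6 and 63.4 in GFP- libraries, and its P80 values 97.5, 108, 116 and 117 in GFP+, against 20.8, 45.1, 47.0 and 49.2 in GFP- libraries. The groups were apart at each age, and the log2 difference was 1.21 ± 0.20 (limma adjusted p = 2.91e-05), or 0.43 with pan-neuronal scaling. Kcnmb4, the beta subunit most typical of neurons, did not differ by the test averaged over ages, at 0.10 (limma adjusted p = 0.679). Its groups lay apart in opposite directions at P7 and P21. At P7 it had 34.4, 37.5, 46.9 and 49.0 in GFP+, against 49.1, 67.0, 73.4 and 88.7 in GFP- libraries, a log2 difference of -0.70 (limma adjusted p = 0.0925). At P21 it had 37.5, 43.1 and 44.9 in GFP+, against 19.7, 33.7 and 34.1 in GFP- libraries, a log2 difference of 0.54 (limma adjusted p = 0.209). Neither age passed the test.

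Other genes around these channels were read as lists, beside 22.6% of all genes higher and 25.5% lower in GFP+ nuclei. Of 4 tested genes for LINGO and LRRC auxiliary proteins of BK channels, Lingo1 at 1.001, Lingo2 at 0.99 and Lrrc26 at 0.88 were higher and Lrrc55 at -0.56 was lower. With pan-neuronal scaling (3.4% of all genes higher and 74.9% lower) 1 was higher and 1 lower. Of 14 genes for calcium channels and stores that feed calcium-activated channels, 11 were higher and 3 lower in GFP+ nuclei, with a median of 0.85, against -0.02 for all genes. The ryanodine receptor genes Ryr1 at 2.22 and Ryr2 at 1.28 were higher, and the inositol trisphosphate receptor genes Itpr2 at -2.46 and Itpr3 at -1.57 were lower. With pan-neuronal scaling 4 of the 14 were higher and 5 lower, with a median of 0.06.

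The small conductance (SK) channels open to calcium alone, through bound calmodulin, and carry the medium afterhyperpolarisation. Kcnn2 was not called averaged over ages, and its GFP- libraries spread more than its GFP+ libraries at P21 and P80. At P7 it had 326, 348, 369 and 393 in GFP+, against 317, 358, 359 and 378 in GFP- libraries. The P21 values were 268, 281 and 299.7 in GFP+, against 225, 304 and 338 in GFP- libraries, and the P80 values 327, 336, 352 and 354 in GFP+, against 168, 289, 330.4 and 402 in GFP- libraries. The groups overlapped at each age. The log2 difference was 0.10, with a 95% interval from -0.13 to 0.32 (limma adjusted p = 0.499), and Kcnn1 gave 0.19, with an interval from -0.09 to 0.47. Pan-neuronal scaling lowers every difference by 0.78 and put Kcnn2 at -0.69 and Kcnn1 at -0.59, against a median of -0.81 over all genes. Both were called lower on that scale (limma adjusted p = 4.82e-06 and 0.00348), as were 74.9% of all genes. Kcnn3 was lower in GFP+ nuclei by a log2 difference of -0.56 ± 0.14 (limma adjusted p = 0.00198). Of 9 genes of the calcium sensing complex, Calm3 at 0.46 and Calm2 at 0.43, which encode calmodulin, were higher. Ppp2ca at -0.44 and Csnk2a1 at -0.23, which encode subunits of the phosphatase and kinase bound to the channel, were lower, and the other 5 were not called. Among all genes 22.6% were higher and 25.5% lower. With pan-neuronal scaling 0 of the 9 were higher and 7 were lower, where 74.9% of all genes were lower. Kcnn4, the intermediate conductance channel of blood and vessel cells, was not tested, with its highest value of 36.6 in ES16. Kcnu1, the pH-sensitive channel of sperm, differed by -0.11 and was not called.

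The number of members called for a change with age inside GFP+ nuclei depended on which libraries were fitted, as described below. The calls given first come from the fit of all libraries together. Between P7 and P80, 4 of the 33 passed the test, 2 higher and 2 lower at P80, or 12.1% against 9.39% of all genes (3.48% higher and 5.91% lower). Kcnj3 averaged 1023 ± 77.4 at P80 and 552 ± 51.2 at P7 (SD, n = 4 each), a log2 difference of 0.89 ± 0.19 (limma adjusted p = 0.00396). Kcnj2 averaged 306 ± 26.5 at P80 and 179 ± 14.4 at P7, a difference of 0.77 ± 0.21 (limma adjusted p = 0.0249). For both genes every P80 library was above every P7 library, but the call of Kcnj2 was lost without ES1, ES5, ES7, ES19 or ES21, with a log2 difference of 0.72 to 0.78 and an adjusted p of up to 0.0804. Kcnj16 averaged 36.9 ± 11.04 at P80 and 86.0 ± 30.04 at P7, a difference of -1.18 ± 0.26 (limma adjusted p = 0.00511). Kcnn3 averaged 78.8 ± 15.7 at P80 and 162 ± 63.7 at P7, a difference of -0.97 ± 0.23 (limma adjusted p = 0.00805). Every P80 library was below every P7 library for Kcnj16 and for Kcnn3. The share of all genes whose P80 and P7 libraries lie apart was not counted. The separations of these 4 genes are therefore description only.

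Glial markers fell over the same interval. In GFP+ nuclei 7 of 10 astrocyte, 8 of 10 oligodendrocyte and 7 of 8 oligodendrocyte precursor genes were lower at P80 than at P7, with astrocyte scores of 5.89 to 6.56 at P80 and 7.57 to 8.08 at P7. Their part in the lower Kcnj16 and Kcnn3 was not tested. With pan-neuronal scaling the members called were Kcnj3 at 0.90 and Kcnmb1 at 1.12 (limma adjusted p = 0.0381), both higher, against 1.37% of all genes. On that scale the differences of Kcnj2 (0.78), Kcnj16 (-1.17) and Kcnn3 (-0.96) were nearly the same but were not called, with adjusted p of 0.312, 0.0524 and 0.0835, and 2.18% of all genes were lower.

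The count of age changes in GFP+ nuclei depended on which libraries were fitted. Those above come from a fit of all 22, which share 1 estimate of the spread. Fitted on the P80 and P7 GFP+ libraries alone, 11 members were called, 7 higher and 4 lower, against 22.3% of all genes. Without ES8, ES12 and ES16, 12 were called, 7 higher and 5 lower, against 20.8% of all genes. Beyond the 4 named above, both fits called Kcnmb1 (1.11), Kcnmb2 (0.60), Kcnj9 (0.51), Kcnj6 (0.50) and Kcnt1 (0.37) higher and Kcnk3 (-0.65) and Kcnt2 (-0.52) lower at P80. Kcnj10 (-0.60) was called lower only in the fit without the 3 libraries. In the authors' deposited table, the test across the 3 ages in pDyn-lineage nuclei had an adjusted p under 0.05 for 11 of the 39 members, against 15.6% of all genes, among them Kcnj3 at 7.05e-18, Kcnj2 at 1.87e-09, Kcnt2 at 8.7e-09 and Kcnmb1 at 9.8e-08.

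**Figure D5:**
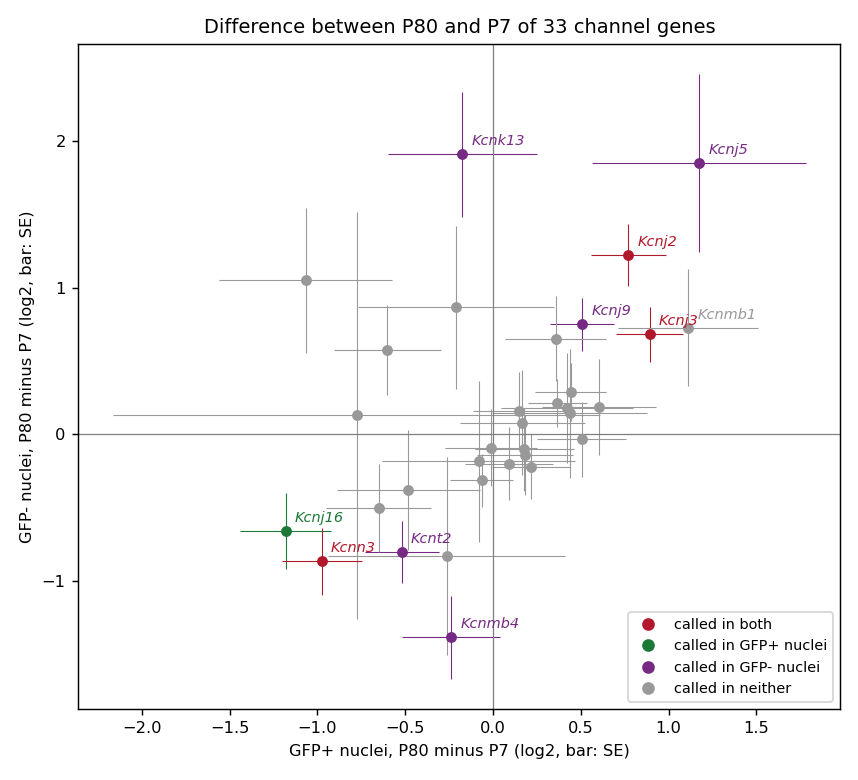
Log2 difference between P80 and P7 in GFP+ nuclei (horizontal) and in GFP- nuclei (vertical) for the 33 tested channel genes, coloured by where the difference passed an adjusted p of 0.05 without pan-neuronal scaling. Kcnj3 and Kcnj2 lie in the upper right and Kcnn3 in the lower left, called in both populations, while Kcnk13 at 1.91 and Kcnmb4 at -1.38 on the vertical axis were called in GFP- nuclei.

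The shorter intervals gave fewer calls in GFP+ nuclei. Between P7 and P21 only Kcnn3 passed the test, lower at P21 (1 of 33, against 2.33% of all genes, 0.865% higher and 1.46% lower). That call, at -0.94, was lost when any of 16 single libraries was left out, with an adjusted p of up to 0.211 (without ES15). With only the GFP+ libraries of P21 and P7 fitted 7 members were called, 5 higher and 2 lower, against 8.13% of all genes, and without ES8, ES12 and ES16 there were 8, 4 higher and 4 lower, against 9.29%. Between P21 and P80 limma called 0 of 33, against 0.242% of all genes, with 2 at an unadjusted p under 0.05 (5.4% of all genes). Both edgeR and DESeq2 also called 0, counts given without the share of all genes that each called. Group means show the order over P7, P21 and P80: 552, 818 and 1023 for Kcnj3, 221, 374 and 461 for Kcnmb1, and 3291, 2249 and 2281 for Kcnt2.

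In GFP- nuclei 8 members passed between P7 and P80, against 16.3% of all genes (7.56% higher and 8.77% lower). Kcnj2 (1.22), Kcnj3 (0.68), Kcnj9 (0.75), Kcnj5 (1.85) and Kcnk13 (1.91) were higher at P80, and Kcnt2 (-0.80), Kcnmb4 (-1.38) and Kcnn3 (-0.86) were lower. The call of Kcnj3 was lost without ES6 or ES20, at 0.49 and 0.63, and that of Kcnj5 without any of 7 single libraries, at 1.38 to 1.97. With pan-neuronal scaling, Kcnj5 (2.02, limma adjusted p = 0.0578) and Kcnn3 (-0.69, limma adjusted p = 0.186) were not called. Kcnk13 averaged 140 ± 71.5 at P80 and 33.9 ± 5.10 at P7 (SD, n = 4 each), and Kcnmb4 averaged 28.1 ± 16.2 at P80 and 69.6 ± 16.4 at P7. Oligodendrocyte marker scores were 10.2 to 12.15 at P80 and 9.82 to 10.3 at P7 in the same nuclei. Microglia scores were 5.26 to 7.32 at P80 and 5.36 to 5.99 at P7. The part of both cell types in the Kcnk13 difference was not tested. Between P7 and P21, 6 members passed, against 10.1% of all genes (5.03% higher and 5.07% lower): Kcnj2, Kcnk1 and Kcnk13 were higher and Kcnt2, Kcnmb4 and Kcnn3 were lower at P21. Without ES16 the calls of Kcnt2 (-0.71), Kcnmb4 (-0.98) and Kcnn3 (-0.71) were lost, that of Kcnn3 also without ES18, ES22 or ES24 (-0.82 to -0.88), and that of Kcnk13 without ES12 (1.22) or ES24 (1.70). With only the GFP- libraries of P21 and P7 fitted, Kcnj2 alone was called, against 0.618% of all genes. With pan-neuronal scaling 7 were higher and 0 lower, against 15.6% and 0.575% of all genes, and Kcnt2 (-0.45), Kcnmb4 (-0.71) and Kcnn3 (-0.35) were not called, while 5 of the 14 pan-neuronal genes were lower at P21 than at P7 (median -0.56). Between P21 and P80 limma called 0, against 1.95% of all genes, with 1 at an unadjusted p under 0.05 (20.4% of all genes). Here edgeR called 0 and DESeq2 called 1, counts given without the share of all genes that each called.

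The limma test of whether the population difference changed with age called 0 of 33 members, against 0.951% of all genes, with 4 at an unadjusted p under 0.05 (11.8% of all genes). Both edgeR and DESeq2 also called 0, counts given without the share of all genes that each called. The smallest limma adjusted p was 0.199, for Kcnk13, whose log2 difference between GFP+ and GFP- nuclei was -3.51 at P80 and -1.42 at P7. Kcnmb4 followed at 0.223 and Kcnj10 at 0.397. Kcnk5 is left out of this order, since it passed the filter on low values only through GFP- libraries. A change of a channel gene with age in one population and not in the other was therefore not shown.

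The authors' deposited table compares the populations with a Wald test. It gave an adjusted p under 0.05 to 24 of the 39 members over all ages, 17 higher and 7 lower in GFP+ nuclei, against 40.8% of all genes. By age the authors' deposited table gave 13 higher and 5 lower at P7, against 21.4% of all genes, 10 higher and 5 lower at P21, against 13.5%, and 11 higher and 5 lower at P80, against 20.4%. These counts come from another test and an unfiltered list, and stand beside those above without a comparison.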

How the data were processed

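Nuclear RNA of 22 sorted samples was sequenced on an Illumina HiSeq after NuGEN SoLo library preparation, per the labels' protocols. Tools listed in the submitters' processing notes are STAR, HTSeq, DESeq2, Trim Galore and cutadapt, with no versions. The sources used here give no genome build, annotation or strand setting. The deposited table holds 1 value per gene and library, a signal that the authors made by dividing read counts by library size factors, per the file headers. The same headers give the authors' log2 fold changes, Wald test p-values and FDR-corrected p-values, and the test statistic, a score, which are quoted only where named.

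The columns carry library codes (ES1 to ES24) and no sample title. Age was taken from the authors' deposited table for each age and population from their across-age table of pDyn-lineage nuclei. Neither gives the animal or sex, so that libraries were grouped and not paired, and sex was not analysed. Within each library 100% of the values above 0 were whole multiples (within 0.01) of 1 step, between 0.547 and 1.31, and read counts were recovered from these.

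Genes that reached 10 in 3 or more libraries (18614 of 21363) entered limma 3.58.1 (R 4.3.3) on log2(value + 1), with 1 mean for each of 6 groups, a mean-variance trend and robust moderation. Tests are two-sided with Benjamini-Hochberg adjustment over all genes tested, and the threshold is 0.05. Fold changes on this scale understate those of low genes. The p-values measure the spread between these libraries, 1 per animal and population. The GFP+ and GFP- samples of 1 animal entered as independent. Alternatives were edgeR 4.0.16 and DESeq2 1.42.0 on recovered reads, other scalings, pseudocounts and filters, fits of the contrast's libraries alone and the leaving out of libraries. edgeR called 22 members averaged over ages, 15 higher and 7 lower, a count given without the share of all genes that edgeR called. The limma, edgeR and DESeq2 code was tested on simulated data.

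The members, gene lists and tests were chosen with earlier results of these data known, and the lists are not independent evidence. Values are given for members called with a log2 difference of at least 1 in size averaged over ages or between P80 and P7, and for those in the top quartile of the members by mean. The rest are given by direction and range, except where a choice made after seeing the values is stated. Of each list, up to 4 genes with the largest called difference are named. Kcnmb3 and Kcnk16 were not analysed here. Promoter windows are from RefSeq, GRCm38.p6. Gene positions are from GENCODE M21 on GRCm38.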

Additional observations from a re-analysis of the deposited data

Results flagged for a closer look

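Of 132 groups of 4 libraries, a single library stood far from the other 3 for 15, where about 1 in 20 groups does so by chance. P21, with 3 libraries a group, was not examined. The causes of these gaps were not tested.

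In GFP+ nuclei, Kcnj12 had 24.5 in 1 P7 library (ES21), against 17.3 to 18.2 in the others. Kcnj13 had 25.8 in ES23 at P7, against 31.9 to 32.9. Kcnj5 had 1.14 in ES17 at P7, against 9.37 to 9.88. Kcnt1 had 3438 in ES23 at P7, against 2861 to 2953. Kcnj8 had 0.870 in ES7 at P80, which is 1 read, against 0 in the others, and Kcnk3 had 37.4 in ES7, against 58.2 to 58.9.

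In GFP- nuclei at P7, ES20 stood apart for 3 genes. It had 1034 of Kcnj10, against 751 to 792, 619.5 of Kcnma1, against 867 to 906, and 31.5 of Kcnu1, against 22.7 to 24.0. Kcnk12 had 33.1 in ES24, against 12.02 to 15.3. In GFP- nuclei at P80, ES8 was low for Kcnt2 at 223, against 415 to 447, and for Kcnmb2 at 20.8, against 45.1 to 49.2. ES2 had 97.9 of Kcnj16, against 113 to 115, and 52.2 of Kcnmb4, against 19.0 to 22.1. Kcnk5 had 8.02 in ES6, against 19.6 to 20.8.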

How the results depend on the processing

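No paired analysis was possible because the columns carry library codes that no label ties to an animal, although each animal gave both samples. The counts in this section show how the calls of members moved between settings. The share of all genes called moves with the setting too and is not set beside them. They are therefore not a result about the members. None of the 22 calls averaged over ages was lost by leaving out 1 library, which left 22 or 23 called members, while single ages had 12 to 16 (P7), 16 to 19 (P21) and 16 to 19 (P80). Without ES8, ES12 and ES16, a choice made after seeing the data that leaves 1 GFP- library at P21, the counts were 23 averaged over ages (15 higher, 8 lower), with 19 at P7, 12 at P21 and 17 at P80 alone.

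The age comparisons moved more. Within GFP+ nuclei, P21 against P7 gave 1 call, but 0 with TMM or pan-neuronal scaling, 3 with DESeq2, 7 with only the libraries of the contrast, 8 without ES8, ES12 and ES16, and 0 to 3 on leaving out 1 library, where the result changed for most of the libraries. P80 against P21 gave 0 calls, but 2 with only the libraries of the contrast, and 0 on leaving out any 1 library. P80 against P7 gave 4, but 2 with pan-neuronal scaling, 11 with only the libraries of the contrast, 12 without the 3 libraries, and 3 to 6 on leaving out 1. Within GFP- nuclei, P21 against P7 gave 6, but 1 with only the libraries of the contrast and 4 to 10 on leaving out 1, with 10 without ES14. P80 against P21 gave 0, but 1 with DESeq2, 1 without the 3 libraries and 0 to 4 on leaving out 1 (ES8, ES12 or ES14 gave calls). P80 against P7 gave 8, and 6 to 9 on leaving out 1. The interaction gave 0, and 0 or 1 on leaving out 1 library (1 without ES2). Fits of the contrast's libraries alone do not apply to the mean of ages or the interaction.

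Averaged over ages, pan-neuronal scaling reversed the sign of Kcnj2 (-0.11), Kcnk12 (-0.76), Kcnmb4 (-0.69), Kcnn1 (-0.59) and Kcnn2 (-0.69). Each of these was called on at least 1 of the scales. Kcnk3 (-0.36) and Kcnk7 (-0.33) also turned negative averaged over ages but were called on neither scale. Among members called at a single age in the main fit, this scaling reversed Kcnmb2 at P21 (-0.0029) and Kcnj2 at P80 (-0.10). By its construction it lowers every difference between the populations. Single member results were followed for all tested members averaged over ages. In the other comparisons only members called in the main fit were followed, so that a gained call could not be counted there. Under the settings that keep the full set of libraries or those of the contrast, 820 kept direction and side of the threshold. Of the rest, 6 gained a call, 52 lost one and 7 reversed. Without ES8, ES12 and ES16, 85 kept both, 2 gained a call and 16 lost one. On leaving out 1 library, 2178 kept both, 4 gained a call and 84 lost one. Calls that 1 library could end were Kcnj6 and Kcnk13 at P7, Kcnmb2 at P7 and P21, Kcnk6 at P21, Kcnj2, Kcnj8, Kcnk10 and Kcnn3 at P80, Kcnn3 (P21 against P7) and Kcnj2 (P80 against P7) in GFP+ nuclei, and in GFP- nuclei Kcnj3 and Kcnj5 (P80 against P7) and Kcnk13, Kcnmb4, Kcnn3 and Kcnt2 (P21 against P7). The causes were not tested. Depth limits Kcnj5, Kcnj8, Kcnk5 and the 6 members left untested, whose means over all libraries were under 10.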
